A study of Mus musculus with 3 samples.

Results

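Keratins are the intermediate filament proteins of epithelial cells, and the genes that encode them were examined in the incisor enamel organ of Stim1-deficient mice. Members were chosen by symbol, as Krt followed by a number and at most 1 lower-case letter, which leaves out the keratin-associated proteins (Krtap). This gave 50 of the 20937 listed genes, of which 3 were grouped as basal, 15 as suprabasal or mucosal, 6 as simple epithelial, 20 as hair follicle and 6 as other keratins. RNA from whole incisor enamel organs of mice aged 4 weeks, described as male, was sequenced, with 1 library for each of 3 genotypes. The Stim1 cKO mouse carried the AmelX-iCre transgene and Stim1 fl/fl, and the Stim1 HT mouse carried AmelX-iCre and Stim1 fl/wt. The Stim1 Ctrl mouse was Stim1 fl/fl without AmelX-iCre. The transgene is specific to ameloblasts, so that Stim1 is meant to stay intact in the other cells of the enamel organ.

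A keratin filament is built from pairs of a type I and a type II keratin, and the pair in use depends on the kind of epithelium and on how far its cells have differentiated. Basal cells of stratified epithelia use Krt5 with Krt14, suprabasal cells change to Krt1 with Krt10 in skin or Krt4 with Krt13 in the lining mucosa of the mouth, and single-layered epithelia use Krt8 with Krt18. The enamel organ is an ectodermal epithelium in which Krt5 and Krt14 are known to be made, and hair keratins are known mainly from the hair shaft and its sheaths.

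Total counts were 21496136, 20216507 and 28265960 in Stim1 cKO, Stim1 HT and Stim1 Ctrl. Levels are given as CPM after scaling of the libraries by edgeR's TMM method. Apart from the choice of keratins to name, which used CPM, levels of different genes were compared only as CPM per kb of exon. A count of 3 was taken as the floor of detection and equals 0.124, 0.152 and 0.117 CPM in Stim1 cKO, Stim1 HT and Stim1 Ctrl, for counting error only. There were no replicates, and how much mice of 1 genotype vary is not known. The Stim1 cKO library was compared with both controls as a group by edgeR's quasi-likelihood test. Genes over 2-fold apart with an adjusted p below 0.01 were called. This test takes its spread from the control libraries, and these differ in genotype. In bulk RNA, fewer cells of a kind and less RNA per cell cannot be told apart.

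Stim1, the targeted gene, was at 72.8, 129 and 186 CPM in Stim1 cKO, Stim1 HT and Stim1 Ctrl. It was lowest in the library labelled as the full deletion, with log2 fold change -1.11 and adjusted p 0.106 by edgeR, and was not called. The labels name the cells as ameloblasts. Amelx, which encodes amelogenin and marks secretory ameloblasts, was present at 2065, 20016 and 14088 CPM in Stim1 cKO, Stim1 HT and Stim1 Ctrl. Col1a1, a collagen gene of mesenchymal cells, was at 21092, 22640 and 37268 CPM in the same order, so the ameloblast markers were present in each library beside those of other cells. In a check of the libraries against their labels, 1 of 3 did not match, and the part of this in each comparison with that library was not tested.

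More keratins were higher than lower in Stim1 cKO, and those of the inner root sheath of the hair were mostly lower. Enough counts for the test were held by 45 of the 50 keratins. Stim1 cKO had the highest level in 23 of these, or 51.1%, beside 43.6% of all genes tested. It had the lowest level in 15, or 33.3%, beside 42.1% of all genes, and a level between the controls in 7. The median log2 fold change of the keratins tested was 0.47, beside -0.01 over all 18702 genes tested. Without the Stim1 HT library this median was 0.21, and without the Stim1 Ctrl library it was 0.24, both as values with no test.

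By edgeR's quasi-likelihood test 0 keratins were called, where 0.0749% of all genes tested were. The lowest adjusted p of a keratin was 0.0154, reached by Krt2 and Krt16. An unadjusted p under 0.05 was reached by 17 keratins, or 37.8% of those tested, beside 31.9% of all genes. Of these, 11 were higher and 6 lower in Stim1 cKO, which is 24.4% and 13.3% of the keratins beside 18.5% and 13.4% of all genes. DESeq2, at the same thresholds, called 10 of the 37 keratins to which it gave an adjusted p, or 27.0%, beside 11.5% of all genes. It called 7 as higher (Krt2, Krt6b, Krt14, Krt16, Krt18, Krt76 and Krt90), where the share of all genes was 6.42%, and 3 as lower (Krt25, Krt27 and Krt71), where it was 5.10%.

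On single libraries, 10 keratins were over 2-fold above both controls in Stim1 cKO, or 22.2% of those tested, beside 19.1% of all genes. Over 2-fold below both controls were 7 keratins, or 15.6%, beside 8.23% of all genes. Of these 17 keratins, 13 had a mean of at least 50 counts. The others, Krt31, Krt33b, Krt34 and Krt42, had between 2 and 64 counts in a library. When each library was scaled to its own summed keratin counts, a choice made after seeing the data, 7 keratins were over 2-fold above and 8 over 2-fold below both controls, and the median against the controls was 0.08.

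**Figure D1:**
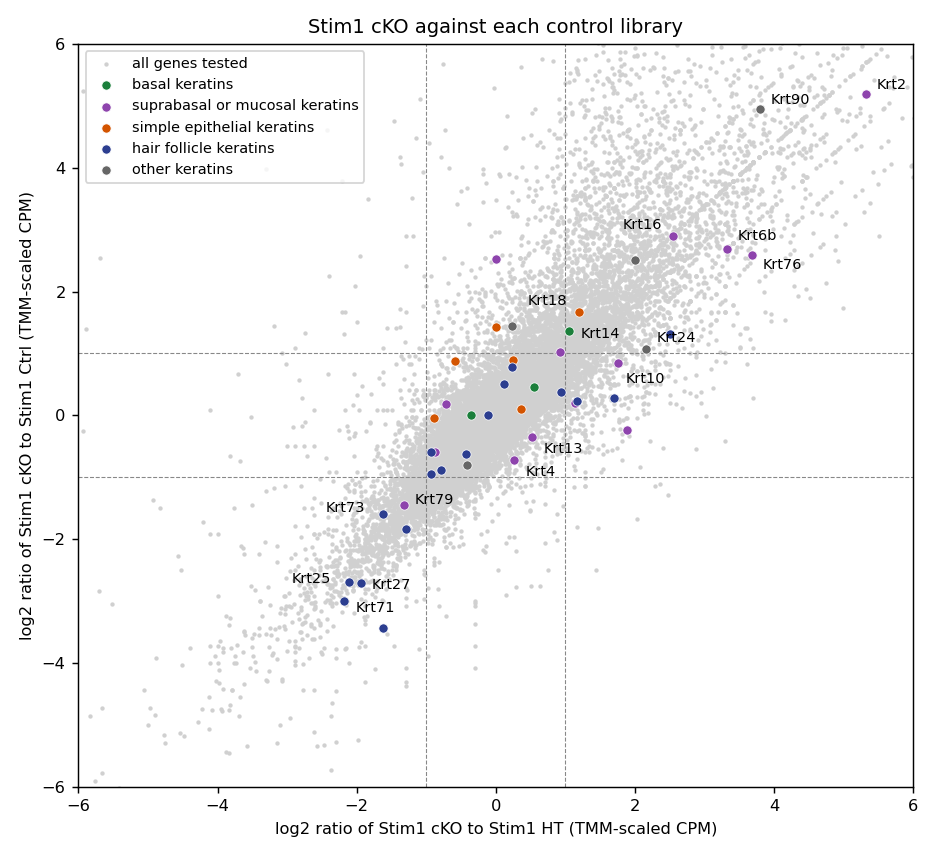
The log2 ratio of Stim1 cKO to Stim1 HT (x axis) and to Stim1 Ctrl (y axis) on TMM-scaled CPM, for the 45 keratins tested in colour by class and all genes tested in grey; each point is a gene from single libraries, dashed lines mark 2-fold, and genes beyond the axes are not drawn. Krt2, Krt90, Krt76, Krt6b and Krt16 lie to the upper right, and Krt71, Krt25 and Krt27 to the lower left; the axes share the Stim1 cKO library.

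Of all counts, keratin transcripts made up 1.08% (95% Wilson interval 1.080 to 1.088) for Stim1 cKO, 0.623% (0.620 to 0.627) for Stim1 HT, and 0.832% (0.829 to 0.835) for Stim1 Ctrl. The summed level was 9627, 6397 and 9137 CPM in Stim1 cKO, Stim1 HT and Stim1 Ctrl. It was lowest in Stim1 HT, and Stim1 cKO and Stim1 Ctrl were near each other. Per kb of exon, the suprabasal or mucosal keratins made up 61.4%, 59.6% and 74.7% of the keratin level, again for Stim1 cKO, Stim1 HT and Stim1 Ctrl. Basal keratins, 3 in number, made up 32.1%, 33.3% and 21.2% in the same order, the simple epithelial keratins 5.20%, 5.60% and 2.54%, and the hair follicle keratins 0.277%, 1.04% and 1.06%. The other keratins were at 0.983%, 0.419% and 0.508%. By share, Stim1 cKO was near Stim1 HT for basal and simple keratins, and stood below both controls for hair follicle keratins.

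**Figure D2:**
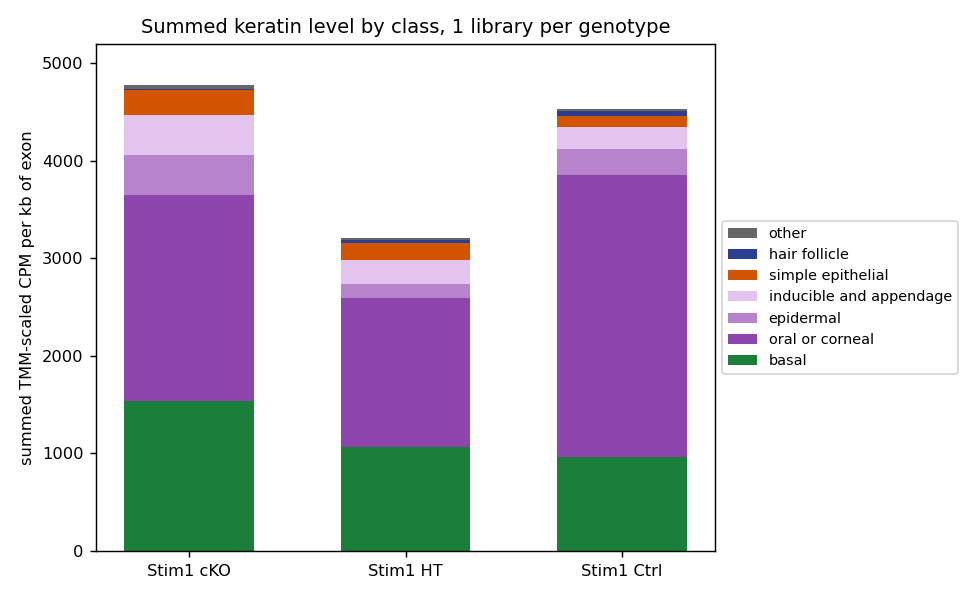
Summed keratin level per library in TMM-scaled CPM per kb of exon, stacked by class, with 1 library per genotype and no error bar. The basal part is 1538, 1070 and 960 in Stim1 cKO, Stim1 HT and Stim1 Ctrl, and the oral or corneal part is highest in Stim1 Ctrl, at 2892.

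The most abundant keratins per kb of exon were Krt13 and Krt4 in each library, which together held 42.7%, 47.4% and 63.6% of the keratin level (Stim1 cKO, Stim1 HT, Stim1 Ctrl). Next came Krt14 in Stim1 cKO, and Krt5 in Stim1 HT and Stim1 Ctrl. The 8 most abundant keratins held 86.8%, 90.5% and 92.7% in Stim1 cKO, Stim1 HT and Stim1 Ctrl. Per kb, the level of type II keratins relative to type I keratins was 0.640, 0.644 and 0.744 in the same order.

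**Figure D3:**
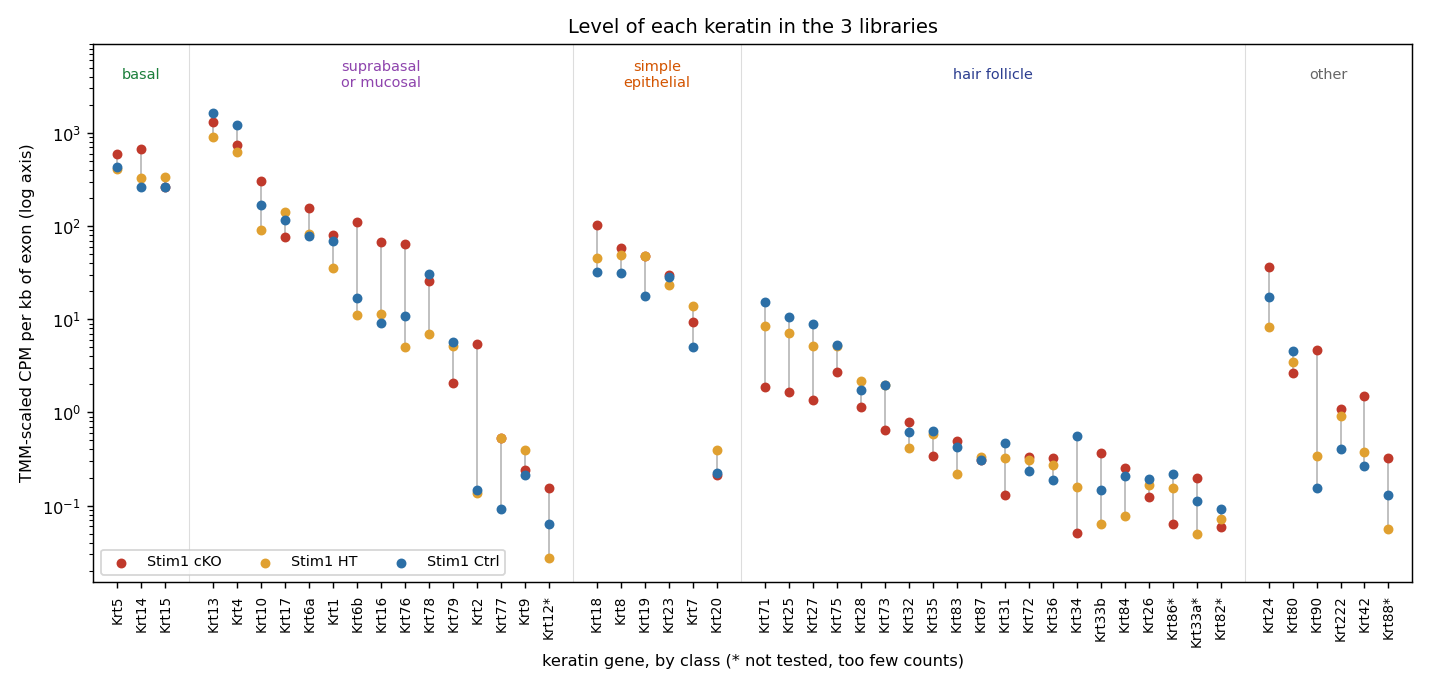
Level of each of the 50 keratins in TMM-scaled CPM per kb of exon (log axis), grouped by class and ordered by mean level; each dot is 1 library and the line spans the 3 libraries. Krt13, Krt4, Krt5, Krt14 and Krt15 are the most abundant by mean level, and the hair follicle keratins lie between 0.05 and 15.2.

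Among the basal keratins, the largest difference was that of Krt14. Krt14, the type I keratin of basal cells, was at 1192, 573 and 464 CPM in Stim1 cKO, Stim1 HT and Stim1 Ctrl. It was 2.08-fold above Stim1 HT and 2.57-fold above Stim1 Ctrl, with log2 fold change 1.20 and adjusted p 0.0862 by edgeR; DESeq2 called it at 1.20 (standard error 0.31). Krt5, its type II partner, was at 1309.7, 893 and 949 CPM in Stim1 cKO, Stim1 HT and Stim1 Ctrl. Krt5 was also above both controls, by less, at log2 fold change 0.51 and edgeR adjusted p 0.353, and neither test called it. Krt15, a type I keratin of basal cells that have not begun to differentiate, was at 466, 596 and 466 CPM in Stim1 cKO, Stim1 HT and Stim1 Ctrl. Stim1 cKO and Stim1 Ctrl were alike in Krt15, and the sign of its log2 fold change of -0.19 turned to 0.06 with scaling by library size only. As a ratio per kb within a library, Krt14 to Krt15 was 2.57, 0.966 and 1.00 in Stim1 cKO, Stim1 HT and Stim1 Ctrl.

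Keratins of the lining mucosa of the mouth were the most abundant, and their direction depended on the control. Krt13, the type I keratin of the suprabasal layers of such mucosa, was at 2367, 1643 and 3013 CPM in Stim1 cKO, Stim1 HT and Stim1 Ctrl. Krt4, its type II partner, was at 1585, 1317 and 2616 CPM in Stim1 cKO, Stim1 HT and Stim1 Ctrl. For both, Stim1 cKO lay between the controls, and the sign of the difference depends on the control: without Stim1 HT the log2 ratio of Krt13 was -0.36, and without Stim1 Ctrl that of Krt4 was 0.27. Against the grouped controls the edgeR log2 fold change was 0.02 for Krt13 (adjusted p 0.977) and -0.31 for Krt4 (adjusted p 0.714); the value of Krt13 was -0.01 with no filter on low counts. Of all counts they took 0.445% (95% Wilson interval 0.442 to 0.448) for Stim1 cKO, 0.288% (0.286 to 0.291) for Stim1 HT, and 0.512% (0.510 to 0.515) for Stim1 Ctrl.

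Krt76, a type II keratin of the hard palate and other orthokeratinised oral mucosa, differed from Krt4 and Krt13. It was at 150.1, 11.7 and 24.9 CPM in Stim1 cKO, Stim1 HT and Stim1 Ctrl. Stim1 cKO was high and both controls low, 12.8-fold and 6.03-fold apart. By edgeR the log2 fold change was 3.03 (adjusted p 0.0274), and DESeq2 called it at 3.02 (standard error 0.51). Krt12, the type I keratin of the corneal epithelium, had 7, 1 and 3 counts in Stim1 cKO, Stim1 HT and Stim1 Ctrl and was not tested. As a ratio per kb, Krt76 to Krt4 was 0.0874, 0.00822 and 0.00879 in Stim1 cKO, Stim1 HT and Stim1 Ctrl.

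Of the 7 epidermal keratins tested, 3 were highest and 1 was lowest in Stim1 cKO. Krt2, a type II keratin of late suprabasal cells of the epidermis, had 344, 7 and 10 counts in Stim1 cKO, Stim1 HT and Stim1 Ctrl. These are 14.2, 0.355 and 0.389 CPM, so Stim1 cKO was 40.0-fold above Stim1 HT and 36.6-fold above Stim1 Ctrl, both near the floor. Its log2 fold change of 5.23 (adjusted p 0.0154, edgeR) was the highest among the keratins tested, and DESeq2 called it at 5.24 (standard error 0.84). Krt10, the type I keratin of suprabasal epidermis, was at 643.5, 190.3 and 359.8 CPM in Stim1 cKO, Stim1 HT and Stim1 Ctrl. It was above both controls, with log2 fold change 1.23 and adjusted p 0.140 by edgeR, and neither test called it. Krt1, its type II partner, was at 350.3, 158 and 306 CPM in Stim1 cKO, Stim1 HT and Stim1 Ctrl. Krt1 in Stim1 cKO was near Stim1 Ctrl, at a log2 ratio of 0.20, and Stim1 HT was lowest. Krt79, a type II keratin known from the ducts of the hair follicle and sebaceous gland, went the other way, at 9.92, 24.8 and 27.2 CPM in Stim1 cKO, Stim1 HT and Stim1 Ctrl. Krt79 was low in Stim1 cKO only, at log2 fold change -1.39 and edgeR adjusted p 0.0517.

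Krt6a, Krt6b and Krt16 are made in the epithelium of oral mucosa and skin appendages and are induced in wounded or rapidly dividing epidermis, and all 3 were highest in Stim1 cKO. Krt6b was at 246, 24.6 and 38.2 CPM in Stim1 cKO, Stim1 HT and Stim1 Ctrl. Krt16, a type I partner of the Krt6 proteins, was at 104.8, 17.9 and 14.2 CPM in Stim1 cKO, Stim1 HT and Stim1 Ctrl. Stim1 cKO was 6.43-fold above the nearer control in Krt6b and 5.85-fold in Krt16. The log2 fold change was 2.97 for Krt6b (adjusted p 0.0183) and 2.71 for Krt16 (adjusted p 0.0154) in edgeR's test, and DESeq2 called both, with standard errors of 0.40 and 0.39. Krt6a was at 381, 201 and 187 CPM in Stim1 cKO, Stim1 HT and Stim1 Ctrl, log2 fold change 0.97 and edgeR adjusted p 0.0920. The difference in Krt6a had the same direction and was smaller, and neither test called it. Krt17, a type I keratin of the same group, was at 119.6, 220.2 and 179.7 CPM in Stim1 cKO, Stim1 HT and Stim1 Ctrl, lowest in Stim1 cKO, at log2 fold change -0.74 and edgeR adjusted p 0.172.

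Within a library, the ratio per kb of Krt6b to Krt6a was 0.699, 0.132 and 0.221 in Stim1 cKO, Stim1 HT and Stim1 Ctrl, and that of Krt16 to Krt17 was 0.869, 0.0806 and 0.0780. Both ratios were highest in Stim1 cKO. The split between Krt6a and Krt6b is uncertain, since 30.1% of the 100-base stretches of Krt6b transcripts also occur in Krt6a, and reads from them could have been assigned to either or dropped. Krt16 shares 21.1% of such stretches with Gm11597. In all, 9 keratins share at least 10% of their 100-base stretches with another gene, among them Krt8 (with Krt8-ps, 16.9%) and Krt31, Krt34 and Krt86. Exons of 12 keratins, Krt5, Krt6a, Krt6b, Krt10 and Krt76 among them, overlap a gene on the opposite strand, and their counts are uncertain because it is not stated how strands were treated in counting.

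Of the 6 simple epithelial keratins, 4 had their highest level in Stim1 cKO and 1 its lowest. Krt18, the type I keratin of single-layered epithelia, was at 148, 64.9 and 46.7 CPM in Stim1 cKO, Stim1 HT and Stim1 Ctrl. It was above both controls, at log2 fold change 1.41 and adjusted p 0.0496 by edgeR, and DESeq2 called it (standard error 0.37). Krt8, its type II partner, was at 114, 96.7 and 61.6 CPM in Stim1 cKO, Stim1 HT and Stim1 Ctrl. Krt8 was highest in Stim1 cKO by a smaller margin, at log2 fold change 0.53 and edgeR adjusted p 0.336. Krt19, a type I keratin of ducts and simple epithelia that has no fixed partner, was at 87.9, 87.7 and 32.8 CPM in Stim1 cKO, Stim1 HT and Stim1 Ctrl. In Krt19 both libraries with AmelX-iCre were high and Stim1 Ctrl was low; its log2 fold change against the grouped controls was 0.55 (adjusted p 0.541, edgeR). Krt7, Krt20 and Krt23 had log2 fold changes between -0.50 and 0.23.

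The hair follicle keratins were scarce, summing to 29.3, 72.3 and 101 CPM in Stim1 cKO, Stim1 HT and Stim1 Ctrl. Those of the inner root sheath, the layer that guides the growing hair, were at 13.9, 50.1 and 76.4 CPM in the same order. Krt71, a type II keratin of this layer, had 100, 368 and 852 counts in Stim1 cKO, Stim1 HT and Stim1 Ctrl. Krt25, a type I keratin that pairs with it, had 80, 280 and 547 counts. Krt27, of the same kind, had 51, 159 and 355 counts. In CPM, Krt71 was 4.13, 18.7 and 33.1 in Stim1 cKO, Stim1 HT and Stim1 Ctrl, and Stim1 cKO was lowest in all 3 genes. Their log2 fold changes were -2.65 (adjusted p 0.0401), -2.42 (adjusted p 0.0426) and -2.37 (adjusted p 0.0671) in edgeR's test. DESeq2 called them at -2.66, -2.43 and -2.39 (standard errors 0.57, 0.58 and 0.70).

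Krt73, another type II keratin of the inner root sheath, had 34, 85 and 109 counts in Stim1 cKO, Stim1 HT and Stim1 Ctrl, log2 fold change -1.60 and edgeR adjusted p 0.132. Stim1 cKO was lower than both controls in 6 of the 7 inner root sheath keratins tested, beside 42.1% of all genes tested. The exception was Krt72, with 16, 12 and 12 counts. Of the 6, Krt26 had only 11, 12 and 18 counts and Krt28 had 45, 70 and 72, and neither tool called them. Krt75, of the companion layer beside it, was at 8.88, 16.9 and 17.1 CPM in Stim1 cKO, Stim1 HT and Stim1 Ctrl, also lower in Stim1 cKO (log2 fold change -0.94, adjusted p 0.140, edgeR). The 9 hair shaft keratins tested had no common direction, with 5 higher and 3 lower than both controls. With the 3 not tested, their summed level was 6.53, 5.38 and 7.62 CPM in Stim1 cKO, Stim1 HT and Stim1 Ctrl. Those tested were Krt31, Krt32, Krt33b, Krt34, Krt35, Krt36, Krt83, Krt84 and Krt87, with between 2 and 39 counts in a library. The median log2 fold change was -1.60 for the inner root sheath and 0.49 for the hair shaft.

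The 6 other keratins include Krt90, Krt24 and Krt80. Krt90, a type II keratin, had 290, 17 and 10 counts in Stim1 cKO, Stim1 HT and Stim1 Ctrl. It was high in Stim1 cKO only, at log2 fold change 4.27 and edgeR adjusted p 0.0273, and DESeq2 called it at 4.27 (standard error 0.90). Krt24, a type I keratin, was at 67.9, 15.3 and 32.3 CPM in Stim1 cKO, Stim1 HT and Stim1 Ctrl. Stim1 cKO was over 2-fold above both controls in Krt24, at log2 fold change 1.51 and edgeR adjusted p 0.0944, and neither test called it. Krt80, a type II keratin made in many epithelia, was at 16.7, 22.2 and 29.3 CPM in Stim1 cKO, Stim1 HT and Stim1 Ctrl, lowest in Stim1 cKO (log2 fold change -0.62, adjusted p 0.235, edgeR). Krt42 had 64, 13 and 12 counts and Krt222 had 87, 60 and 34.

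The 5 keratins not tested, Krt12, Krt33a, Krt82, Krt86 and Krt88, had between 1 and 11 counts in a library. At or under the floor of 3 counts in at least 1 library were 7 keratins. Krt39, Krt40, Krt74, Krt81 and Krt85 are not listed, and the table lists only genes with at least 1 count in every library. Krt9, Krt77 and Krt78, which are of the epidermal group, had log2 fold changes of -0.32, 0.79 and 0.47. Krt78 was at 88.9, 24.1 and 104.3 CPM in Stim1 cKO, Stim1 HT and Stim1 Ctrl, so that Stim1 HT was low and the other libraries were near each other.

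Keratin genes lie in a pair of clusters, and neighbours in a cluster differed in direction. In the GENCODE M21 annotation of GRCm38, 25 of the listed keratins lie on chromosome 11 between 99232761 and 100269871, all on the minus strand and all of type I. The other 25 lie on chromosome 15 between 101347444 and 102032027, with 24 of type II and Krt18 of type I. Krt25, Krt26, Krt27 and Krt28 are next to each other among the listed keratins and each had its lowest level in Stim1 cKO, while their flanking neighbours Krt24 and Krt10 were higher. On chromosome 15, Krt73 (log2 fold change -1.60) and Krt2 (5.23) are neighbours, as are Krt76 (3.03) and Krt4 (-0.31), and Krt16 (2.71) and Krt17 (-0.74) are neighbours on chromosome 11.

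**Figure D4:**
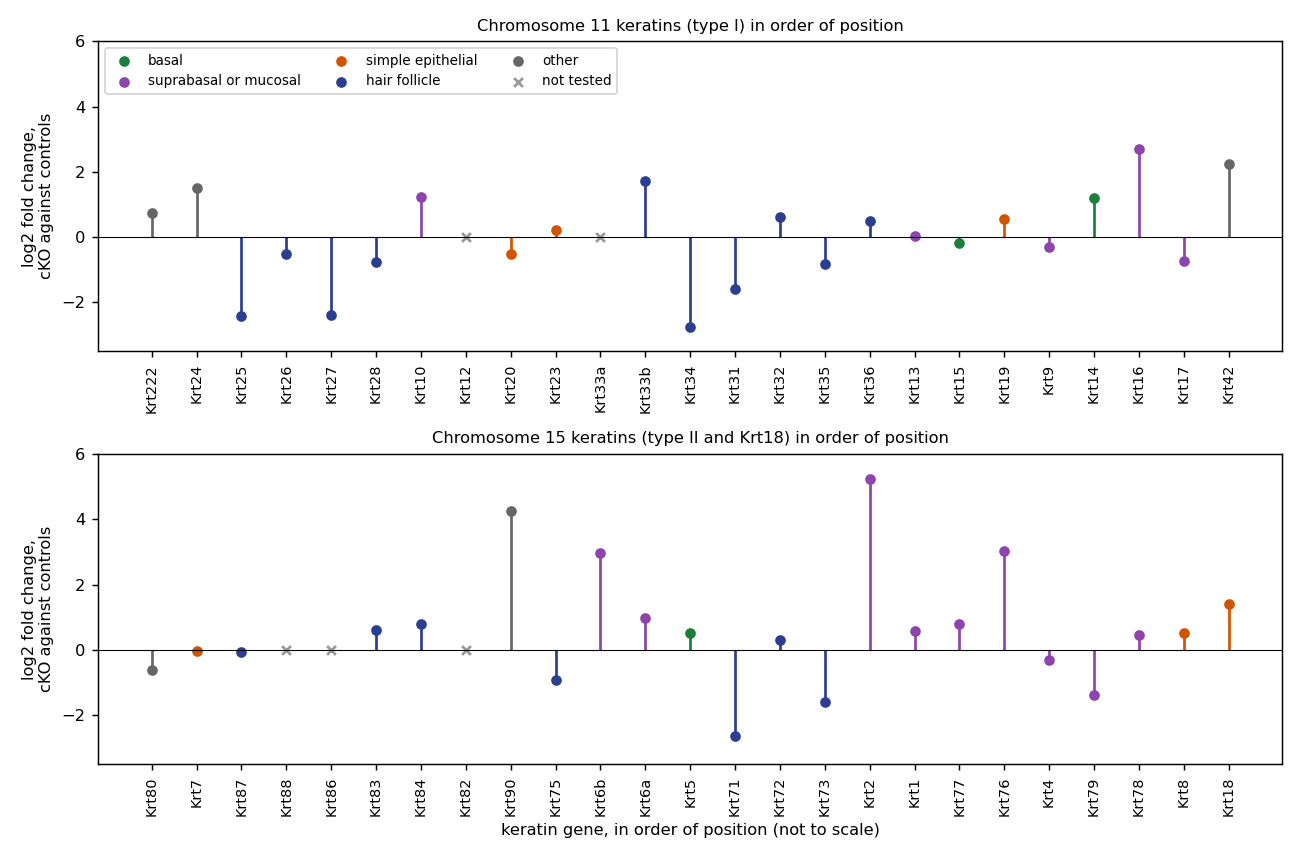
Log2 fold change of Stim1 cKO against both controls (edgeR) for each keratin in its order along chromosome 11 (top) and chromosome 15 (bottom), coloured by class; distances are not to scale and a cross marks a gene not tested. Krt25 to Krt28 lie below 0 beside Krt24 and Krt10 above 0, and Krt73 at -1.60 lies beside Krt2 at 5.23.

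Promoters of 6 keratins from these clusters are shown because the genes differ in direction while sharing a cluster. The sequences are from RefSeq on GRCm38.p6, in which 34 of the 50 keratins were matched, and each covers the bases from 150 to 21 upstream of the start site, 5′ to 3′ on the minus strand. Capitals mark TATAAA, the core of the TATA box, and AAACCAAA or AAGCCAAA, letters known from promoters of epidermal keratins. Both strands were searched. Krt76 (chr15:101892941-101893070), Krt2 (chr15:101818190-101818319) and Krt10 (chr11:99389385-99389514) were higher in Stim1 cKO, and Krt71 (chr15:101743118-101743247), Krt25 (chr11:99322972-99323101) and Krt73 (chr15:101802381-101802510) were lower.
Krt76: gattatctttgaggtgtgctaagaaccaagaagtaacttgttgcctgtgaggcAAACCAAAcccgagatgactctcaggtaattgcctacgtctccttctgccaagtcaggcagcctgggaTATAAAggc
Krt2: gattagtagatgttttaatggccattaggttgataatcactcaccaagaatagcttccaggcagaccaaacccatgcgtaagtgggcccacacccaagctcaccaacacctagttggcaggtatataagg
Krt10: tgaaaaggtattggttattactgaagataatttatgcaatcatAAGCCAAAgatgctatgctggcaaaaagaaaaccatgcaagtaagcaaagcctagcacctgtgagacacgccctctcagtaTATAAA
Krt71: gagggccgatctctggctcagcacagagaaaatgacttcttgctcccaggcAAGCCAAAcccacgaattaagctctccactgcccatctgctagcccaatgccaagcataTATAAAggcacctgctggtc
Krt25: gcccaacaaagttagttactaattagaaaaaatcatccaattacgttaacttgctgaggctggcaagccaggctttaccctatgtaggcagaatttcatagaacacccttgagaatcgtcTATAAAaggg
Krt73: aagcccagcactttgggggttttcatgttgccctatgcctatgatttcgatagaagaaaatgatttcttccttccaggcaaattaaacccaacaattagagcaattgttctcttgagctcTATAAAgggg
Over the 250 bases upstream of the start site, TATAAA occurred in 16 of 35 keratin promoters (45.7%), beside 12.4% of 32851 RefSeq promoters. AAACCAAA or AAGCCAAA occurred in 7 of the 35 (20%), beside 3.08% of the RefSeq promoters. All 7 inner root sheath keratins with a promoter held TATAAA, and 1 of them, Krt71, held the other motif. A match anywhere in the 250 bases was counted, and that of TATAAA was at position -203 in Krt72 and -15 in Krt27. Krt76, Krt10 and Krt71 held both motifs, as did the hair shaft keratins Krt32, Krt33b and Krt34, which had few counts. The log2 fold changes of these hair shaft keratins were 0.62, 1.72 and -2.75, so genes that were higher and genes that were lower have both motifs in common. Krt2 held neither exact sequence in its 250 bases. The search did not cover variants, such as the tatataag near the end of its printed stretch. A match is a description of the letters only.

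The ratio of partner keratins differed between the libraries, more in some pairs than in others. Per kb of exon, the ratio of type II to type I in the pair Krt5 and Krt14 was 0.879, 1.25 and 1.64 in Stim1 cKO, Stim1 HT and Stim1 Ctrl. It was 0.567, 1.09 and 0.968 for Krt8 and Krt18, and 0.261, 0.399 and 0.407 for Krt1 and Krt10. In these pairs the type I member was relatively more abundant in Stim1 cKO than in both controls. For Krt4 and Krt13 the ratio was 0.572, 0.684 and 0.741, and for Krt71 and Krt25 it was 1.14, 1.20 and 1.42, also lowest in Stim1 cKO. For Krt71 and Krt25, Stim1 cKO was near Stim1 HT, and these genes had only 100 and 80 counts in Stim1 cKO. Krt6a to Krt16 was 2.35, 7.26 and 8.55. Krt6b to Krt16, at 1.64, 0.960 and 1.89, was the only pair examined in which Stim1 cKO lay between the controls. The ratio per kb of Krt4 and Krt13 to Krt5 and Krt14 was 1.60, 2.07 and 4.14 in Stim1 cKO, Stim1 HT and Stim1 Ctrl, highest in Stim1 Ctrl. These ratios do not depend on the scaling between libraries and have no replicate check.

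The controls also differed from each other. Between Stim1 HT and Stim1 Ctrl, 11 of the 45 keratins tested were over 2-fold apart, or 24.4%, beside 13.5% of all genes, with 5 higher and 6 lower in Stim1 HT. Krt78 had a log2 ratio of -2.12, Krt76 of -1.09 and Krt24 of -1.08, and Krt7 had 1.47 and Krt19 1.42. Krt13, Krt4, Krt1 and Krt10 were all lower in Stim1 HT, at log2 ratios of -0.88, -0.99, -0.95 and -0.92. The median log2 ratio was -0.09. With 1 library of each, no test of this comparison was possible.

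The partners of keratins in the desmosome and the plakin family, which anchor filaments at the membrane, were listed for 19 of 20 genes, and Eppk1 is not listed. Of 18 tested, edgeR called 0, with 6 at an unadjusted p under 0.05, all higher in Stim1 cKO. Of all genes tested, 31.9% had such a p, and 18.5% had it as higher. DESeq2 called 2, Dsg2 and Dst, as higher in Stim1 cKO. Of all genes it called 11.5%, and 6.42% as higher, and these shares stand beside the lists that follow too. The summed level of the desmosome and plakin list was 2152, 1759 and 2406 CPM in Stim1 cKO, Stim1 HT and Stim1 Ctrl. Most abundant by mean CPM per kb were Perp (log2 fold change 0.01), Pkp1 (-0.11) and Dsp (0.09), while Dsg2, a desmosomal cadherin of simple and basal epithelia, had 1.31 and Dst, which links basal keratins to the hemidesmosome, had 1.44. The 4 genes known to organise keratin filaments, led per kb by Sfn (0.43), Csnk1a1 (-0.49) and Fam83h (0.39), were at 482 CPM, 538 CPM and 522 CPM in Stim1 cKO, Stim1 HT and Stim1 Ctrl. For these, 0 were called by edgeR or by DESeq2 and 0 had an unadjusted p under 0.05.

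The other intermediate filament genes summed to 1463, 3574 and 4487 CPM in Stim1 cKO, Stim1 HT and Stim1 Ctrl, lowest in Stim1 cKO. Of 16 tested, edgeR called 0, with 3 higher and 7 lower at an unadjusted p under 0.05, and DESeq2 called 2 as higher and 5 as lower. The most abundant per kb were Des of muscle (log2 fold change -2.36), Vim of mesenchymal cells (-1.69) and Lmna of the nuclear lamina (-0.99). DESeq2 called Vim, Des, Nes (-1.58), Sync (-1.93) and Lmnb1 (-2.06) as lower. As higher it called Ina of neurons (4.05) and Bfsp2 of lens fibres (3.59).

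Markers of cornified epithelium were listed for 17 of 18 genes, and Flg, which encodes filaggrin, is not listed. They summed to 1207, 655 and 1575 CPM in Stim1 cKO, Stim1 HT and Stim1 Ctrl, and Stim1 HT was lowest, as it was for Krt1, Krt10, Krt4 and Krt13. The most abundant per kb were Lor (log2 fold change 0.14), Calml3 (0.24) and Krtdap (0.39). Of the 17, edgeR and DESeq2 called 0, and 1 had an unadjusted p under 0.05 in edgeR's test. Of the markers of basal epithelium, Col17a1 (0.32) and Itga6 (0.20) had small positive log2 fold changes, and Lamb3 (-0.63) and Lama3 (-0.66) had negative values. Of these 4, both tools called 0, and 0 had an unadjusted p under 0.05. The basal keratins Krt5 and Krt14 were highest in Stim1 cKO, and these markers had no common direction. The 10 genes of epithelium in general summed to 679 CPM, 453 CPM and 336 CPM, led per kb by Epcam (0.76), Cdh1 (0.25) and Cldn4 (0.54). Of these edgeR called 0, with 4 higher at an unadjusted p under 0.05, and DESeq2 called Ehf (1.33). The part of epithelial content in the keratin differences was not tested.

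For the hair follicle, 21 of 21 markers were listed, of which 15 are Krtap genes, and 11 were tested. They summed to 57.9, 44.6 and 59.9 CPM in Stim1 cKO, Stim1 HT and Stim1 Ctrl. Tchh, which encodes trichohyalin of the inner root sheath, was at 7.68 CPM, 20.1 CPM and 29.0 CPM, the same order as Krt71 and Krt25. Gata3, a transcription factor of that layer and of other epithelia, was at 29.9 CPM, 10.4 CPM and 7.42 CPM, the opposite order. Lgr5 was at 11.4 CPM, 6.90 CPM and 12.8 CPM. DESeq2 called Tchh as lower (log2 fold change -1.68) and Gata3 as higher (1.75), and edgeR called 0, with 2 higher and 1 lower at an unadjusted p under 0.05. The Krtap genes had at most 27 counts in a library.

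Ameloblast markers differed in direction, and not all of those of a stage differed alike. The 4 secretory markers summed to 3584, 31173 and 23113 CPM in Stim1 cKO, Stim1 HT and Stim1 Ctrl. DESeq2 called Amelx (log2 fold change -3.05), Ambn (-2.83) and Enam (-2.64) as lower, and edgeR called 0, with 3 at an unadjusted p under 0.05. The 5 maturation markers summed to 912 CPM, 384 CPM and 168 CPM, led per kb by Odam (2.35), Amtn (0.46) and Klk4 (0.44), and for Amtn and Klk4 the levels in Stim1 cKO and Stim1 HT were near each other. DESeq2 called Odam, and edgeR called 0, with 3 at an unadjusted p under 0.05. The part of ameloblast content or stage in the keratin values was not tested.

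Markers of tissues outside the enamel organ also differed between the libraries that the keratin values come from. Of photoreceptor genes, Gnat1 had 4294, 2 and 5 counts in Stim1 cKO, Stim1 HT and Stim1 Ctrl, Prph2 had 2509, 2 and 2, and Sag had 2628, 23 and 12. By edgeR, Gnat1 and Prph2 were called. All 3 had an unadjusted p under 0.05 and were called by DESeq2, and Pde6b is not listed. The lens genes summed to 172, 4.42 and 3.58 CPM in the same order, with 2 of 8 listed. Cryaa had 4036, 86 and 89 counts and was called by edgeR and DESeq2, and Mip had 118, 1 and 3 counts and was called by DESeq2. The crystallins Crygb, Crygd, Cryge, Crybb2 and Cryba1, and Lim2, are not listed.

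The 3 corneal markers summed to 305, 76.9 and 137 CPM in Stim1 cKO, Stim1 HT and Stim1 Ctrl. DESeq2 called Aldh3a1 (log2 fold change 4.48), the most abundant per kb, as higher and Kera (-4.40) as lower, and Pax6 had 1.85. The corneal keratin Krt12 had at most 7 counts, in Stim1 cKO. The list named for salivary and lacrimal glands, 7 of 8 listed without Smr2, summed to 1195 CPM, 481 CPM and 84.7 CPM. It was led per kb by Obp2a (22727, 45 and 1 counts), Dcpp1 (log2 fold change -0.87) and Bpifa2 (-2.85). Obp2a, at 939, 2.28 and 0.0389 CPM, made up most of the sum of Stim1 cKO, so this sum was not read as gland content. Of the 7 genes, 4 peaked in Stim1 cKO. Bpifa2 (9.38, 119 and 15.7 CPM) and Pip (2.52, 6.19 and 49.9 CPM) were lowest there. DESeq2 called Obp2a, Aqp5 (2.52) and Amy1 (3.00) as higher. Of the corneal genes edgeR called 0, with 1 higher and 1 lower at an unadjusted p under 0.05, and of the gland genes also 0, with 4 higher and 1 lower. Krt7, Krt8, Krt18 and Krt19 are known from glands and ducts as well, and the part of these tissues in the keratin values was not tested.

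Skeletal muscle genes, all 6 listed, summed to 3894, 14076 and 18100.1 CPM in Stim1 cKO, Stim1 HT and Stim1 Ctrl, led per kb by Acta1 (log2 fold change -3.14), Tnnt3 (-1.78) and Ckm (-2.32). DESeq2 called these and Myh2 (-2.44) as lower. Myh4 (1.45) went the other way, at 473, 318 and 29.2 CPM in Stim1 cKO, Stim1 HT and Stim1 Ctrl. Myh1 (-0.53) was at 999.7, 1002.2 and 1881.8 CPM in the same order, and neither tool called Myh4 or Myh1. Mesenchymal genes, 6 of 6 listed, summed to 35284 CPM, 49163 CPM and 76100.0 CPM, led per kb by Col1a1 (-0.51), Col1a2 (-1.07) and Col3a1 (-1.70), and DESeq2 called Vim and Col3a1 as lower. Blood genes, 4 of 4 listed, summed to 795 CPM, 1830 CPM and 1218 CPM, led per kb by Hbb-bs (-0.79), Hba-a1 (-1.22) and S100a8 (-0.70). DESeq2 called Hba-a1 as lower. Ptprc (0.70) went the other way, at 19.2, 14.2 and 9.44 CPM in Stim1 cKO, Stim1 HT and Stim1 Ctrl, and neither tool called it. By edgeR 0 were called in these lists, with 4, 2 and 1 genes lower at an unadjusted p under 0.05. These lists were lower in Stim1 cKO than in both controls by summed level, and their part in the share taken by keratins was not tested.

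**Figure D5:**
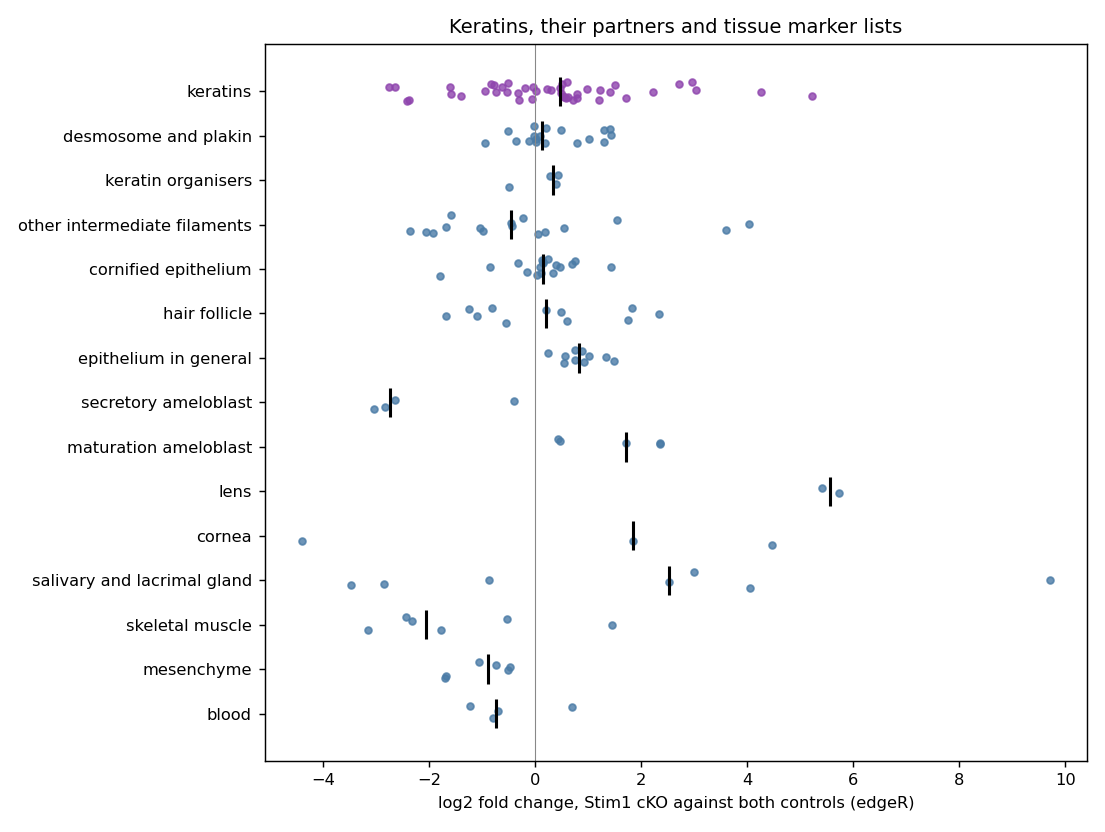
Log2 fold change of Stim1 cKO against both controls (edgeR) for each gene tested, by list, with the 45 keratins on top and without the basal epithelium and photoreceptor lists; each dot is a gene, shifted at random up or down within its row, and the black line is the median of the list. The keratin median is 0.47, and the lowest median, -2.74, is that of the secretory ameloblast genes.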

How the data were processed

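The authors isolated total RNA from the incisor enamel organ, sequenced paired-end reads, checked them with FastQC, aligned them with STAR and deposited raw counts per gene symbol. The methods of the study name a NEBNext directional kit and the labels a SMARTER kit. The aligner version, genome build, annotation, counting tool and strand setting are not given in the sources used here. The submitters' processing notes also name DESeq2.

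Counts were analysed in R 4.3.3 with edgeR 4.0.16 (TMM factors 1.13, 0.975 and 0.911 for Stim1 cKO, Stim1 HT and Stim1 Ctrl, filterByExpr, quasi-likelihood test, Benjamini-Hochberg adjustment over 18702 genes). The common dispersion was 0.106, with 1 residual and 4.15 prior degrees of freedom, and the lone Stim1 cKO library is assumed to vary like the controls. Both tests were also run on simulated data, and the outcome is not reported here. Alternatives were DESeq2 1.42.0 on the same genes, other scalings, filters and thresholds, leaving out abundant genes, and leaving out a control. Scaling to summed keratin counts, and by library size for Stim1 HT against Stim1 Ctrl, was added after seeing the data. Figures used Python 3.11.15, pandas 2.3.3, numpy 2.4.6 and matplotlib 3.10.9. Log2 ratios between single libraries, on TMM-scaled CPM, have no test.

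Exon lengths, overlaps and shared 100-base stretches came from GENCODE M21 on GRCm38, and promoters from RefSeq on GRCm38.p6. Both were matched by symbol. The floor of 3 counts and the 95% Wilson intervals cover counting error only.

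The keratins, classes and lists were chosen with earlier results of these data known. Values in each library are given for the 3 keratins of each class with the highest CPM, those over 2-fold from both controls with a mean of at least 50 counts, those called by either tool, and known pairs. From each other list the 3 most abundant genes per kb and those called are named. Results for some genes of the marker lists are not reported here. Krt17, Krt26, Krt28, Krt78, Myh1, Myh4, Pip and Ptprc were added, and the threshold of the label check was set, after seeing the data. The remaining keratins are named to account for every member.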

Additional observations from a re-analysis of the deposited data

How the results depend on the processing

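With edgeR, the number of genes called was 50 with RLE factors, 138 with upper-quartile factors, 6 with library size only, 907 with no filter, 6 at a mean count of 50 or more and 1811 at an adjusted p under 0.05, beside 14, and DESeq2 called 1987. The number of keratins called, 0 by edgeR with 17 at an unadjusted p under 0.05, was 1 with upper-quartile factors, 5 with no filter, 8 at an adjusted p under 0.05 and 10 by DESeq2. The median of the keratins was 0.614 with upper-quartile factors and 0.743 with library size only, where the median of all genes moved to 0.116 and 0.248, 0.60 at a mean count of 50 or more, 0.078 scaled to summed keratin counts, and 0.211 to 0.239 without a control library. Of 192 tested values of the 24 keratins named by rule, 174 kept their direction and their side of the threshold, 16 passed the threshold in addition and 2 turned in sign. Without a control library no test was possible, and 46 of 48 values kept their direction. Those that turned were Krt15 (0.0621, library size only), Krt13 (-0.0119 with no filter, and from -0.363 to 0.527 without a control library) and Krt4 (from -0.738 to 0.267 without a control library). The median of Stim1 HT against Stim1 Ctrl turned to 0.00556 with library size only. With library size only, the summed keratin level was 10845, 6236 and 8321 CPM in Stim1 cKO, Stim1 HT and Stim1 Ctrl, and with TMM scaling the level per kb was 4784, 3207 and 4533. Without a control library the level of Stim1 cKO was 9699 to 10088 CPM, that of Stim1 HT 6704 and that of Stim1 Ctrl 9304. Apart from the removal of a library or of genes by the filter, the cause was not tested. No paired analysis was possible because each genotype has 1 library. Counts under about 50 per library, as in the 20 keratins with a mean under 50 counts, limit what can be said of the hair shaft keratins.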
